A study of Homo sapiens with 12 samples.

Results

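The mucin genes were followed in a gallbladder cancer cell line after knockdown of CEACAM6. The set was chosen by name, since biliary epithelium is known to produce mucins, but with earlier results of these data known. It held 10 of the 60617 genes with a value in each sample. These were the secreted gel-forming mucins MUC2, MUC5AC, MUC5B and MUC6, and the membrane mucins MUC1, MUC4, MUC13, MUC15, MUC16 and MUC20. Of the 10 genes, 9 had enough counts for testing, among 17620 tested genes. SNU308 is an established human gallbladder cancer line, labelled wild type, and all 12 samples came from this 1 line. Each culture received siRNA at 25 nM and its RNA was taken on day 3. A non-targeting control siRNA (NTC) was given to 4 samples, siCEACAM6#2 to 4 and siCEACAM6#3 to 4, so the controls shared the transfection but had no siRNA against CEACAM6. The design text speaks of separate experiments but does not say which samples share one, so p-values measure the spread between these samples.

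Mucins are large proteins whose long repeats, rich in serine and threonine, are densely coated with O-linked sugars. The gel-forming mucins are secreted, link into polymers and give bile and gut mucus their viscosity, while the membrane mucins span the cell surface, where their extracellular part can be shed and their cytoplasmic tail can take part in signalling. The gallbladder epithelium secretes gel-forming mucins, MUC5AC and MUC5B among them, and mucin in bile is known as a component that favours gallstone formation.

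The 2 siRNAs against CEACAM6 are shown because the largest differences among the mucin genes lay between them. Both target sequences matched the GRCh38 genome exactly in the 3' UTR within exon 6, the last exon of the CEACAM6 transcript, on the plus strand, at chr19:41771369-41771389 for siCEACAM6#2 and chr19:41771611-41771631 for siCEACAM6#3. Capitals mark the 7 bases that pair with positions 2 to 8, the seed, of the guide strand, if that strand is the target's reverse complement.
siCEACAM6#2: cagccatgcaatgCCAAATAa
siCEACAM6#3: ctcctaatagtcaTACTAGTa
These 7 bases occurred in the 3' UTR of 1 of the 9 mucin genes with an annotated 3' UTR for siCEACAM6#2, which was MUC6, and of 0 of 9 for siCEACAM6#3. Among 13750 tested genes with a 3' UTR the shares were 15.6% and 6.63%, while MUC6 was not itself a tested gene. MUC2 had no annotated 3' UTR in the transcript used.

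The total estimated count lay between 21799476 and 22059456 in all samples, and mitochondrial genes took 11.8% to 12.9% of it in NTC, 12.2% to 13.3% with siCEACAM6#2 and 12.5%, 15.3%, 14.3% and 14.6% in siCEACAM6#3 replicates 1 to 4. CEACAM6, the targeted cell surface adhesion molecule, was at 301 ± 17.0 TPM (SD, n = 4) in NTC, 168 ± 15.2 with siCEACAM6#2 and 211 ± 12.2 with siCEACAM6#3. Its level was 56.7% of NTC with siCEACAM6#2 (adjusted p = 2.71e-05) and 72.5% with siCEACAM6#3 (adjusted p = 0.0151), and leaving out NTC replicate 2, 3 or 4 or siCEACAM6#3 replicate 3 raised the second adjusted p to between 0.0561 and 0.0792. Adjusted p-values are from limma-voom with Benjamini-Hochberg adjustment over all tested genes, and a gene was called when the value was under 0.05. No pair of replicates differed by as little as counting noise, with a chi-square per gene from 2.73 to 6.53 among NTC samples, 3.42 to 10.6 with siCEACAM6#2 and 8.39 to 23.8 with siCEACAM6#3.

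The 10 mucin genes of the set covered a wide range of levels, with MUC20 and MUC1 far above the others of the set. Levels are given in TPM, a share of all transcripts in the sample that takes transcript length into account. MUC20, a membrane mucin known to bind the receptor MET, had a mean of 167 ± 23.6 TPM (SD, n = 12) and made up 65.8% of the summed TPM of the 10 genes. MUC1, the widely expressed membrane mucin of simple epithelia, followed with 63.9 ± 10.4 TPM and 25.1% of the sum. The range of neither gene reached that of the next gene in the order.

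MUC5B at 9.17 ± 1.96 TPM, MUC5AC at 7.05 ± 1.49 TPM and MUC4 at 4.70 ± 1.30 TPM formed the next tier. Their ranges overlapped, although MUC5B exceeded MUC5AC in 10 of 12 samples and MUC5AC exceeded MUC4 in 11 of 12. MUC16 at 0.734 ± 0.152 TPM and MUC15 at 0.711 ± 0.191 TPM were not distinguishable in TPM, with MUC16 the higher in 6 of 12 samples. MUC13, a membrane mucin of the intestine, was at 0.306 ± 0.133 TPM and MUC2, the main intestinal gel-forming mucin, at 0.195 ± 0.0888 TPM. MUC6, known from the deep glands of the stomach and from the gallbladder, had 1 to 7 counts per sample and was not tested. Among the mean TPM of all tested genes, MUC20 stood above 96.2%, MUC5B above 52.1% and MUC2 above 1.55%.

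The order depended on how length was taken into account. CPM, the count scaled to library size, was also divided by the total exonic length of each gene. By this measure MUC1 moved above MUC20, MUC5AC moved above MUC5B, and MUC20 held 36.3% of the sum. MUC16 moved from rank 6 to rank 9, at 0.0827 CPM per kb. It then lay below MUC15 at 0.385, MUC13 at 0.17 and MUC2 at 0.114. The repeats that encode mucin domains vary in length among people and cell lines, and the part of this in the levels was not tested.

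**Figure D1:**
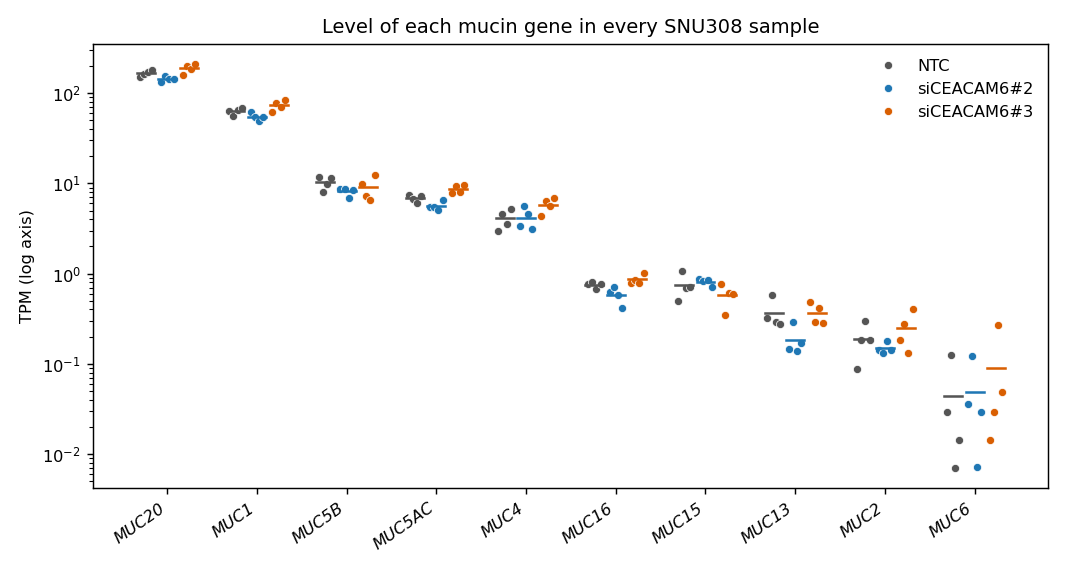
TPM of the 10 mucin genes in every sample, on a log axis. Points are single samples, coloured by group, and short lines are means of 4 samples. MUC20 and MUC1 lie above all others of these 10 genes in all 12 samples, while MUC6 rests on 1 to 7 counts per sample.

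No mucin gene was called in the comparison of either siRNA with NTC. With siCEACAM6#2, 0 of 9 tested mucin genes were called, where 1.25% of all tested genes were. An unadjusted p under 0.05 was found for 3 of the 9, MUC5AC, MUC5B and MUC16 (13.6% of all tested genes had one). edgeR called 0 (1.44% of all tested genes) and DESeq2 called 1, MUC5B (3.03% of all tested genes). The log2 fold change was negative for 8 of 9 and had a median of -0.24, against a median of 0 over all tested genes. With siCEACAM6#3, 0 of 9 were called, where 0.0681% of all tested genes were. An unadjusted p under 0.05 was found for 6 of the 9 (12.5% of all tested genes). edgeR called 0 (0.0738% of all tested genes) and DESeq2 called 1, MUC5AC (1.25% of all tested genes). Here the log2 fold change was positive for 8 of 9, with a median of 0.31, against -0.003 over all tested genes. Both comparisons use the same NTC samples. In the average of both siRNAs versus NTC, 0 of 9 were called, where 0.227% of all tested genes were. Of the 9, 0 had an unadjusted p under 0.05, and edgeR and DESeq2 called 0 (0.312% and 1.91% of all tested genes).

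The siRNAs differed from each other. In siCEACAM6#3 versus siCEACAM6#2, 5 of 9 tested mucin genes were called, where 1.47% of all tested genes were, and all 5 were higher with siCEACAM6#3, where 0.84% of all tested genes were called higher. They were the gel-forming mucins MUC5AC and MUC5B and the membrane mucins MUC1, MUC16 and MUC20. An unadjusted p under 0.05 was found for 8 of the 9 (13.3% of all tested genes), and the median log2 fold change was 0.57, against -0.004 over all tested genes. edgeR also called these 5 (1.57% of all tested genes), and DESeq2 called them and MUC4 (3.16% of all tested genes). Only MUC5AC was called by limma-trend on log2(TPM + 1) or log2(TPM + 0.1), and in the fit of these 2 groups alone. Those settings called 0.278%, 0.301% and 0.333% of all tested genes. The count fell to 1, MUC5AC, when siCEACAM6#2 replicate 3 was left out, and to 2 without siCEACAM6#2 replicate 2 or 4. It fell to 3 without siCEACAM6#2 replicate 1 or siCEACAM6#3 replicate 2 or 3. These fits called 0.464% to 1.04% of all tested genes. In bulk RNA, a smaller number of cells with a transcript cannot be told apart from less transcript per cell.

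**Figure D2:**
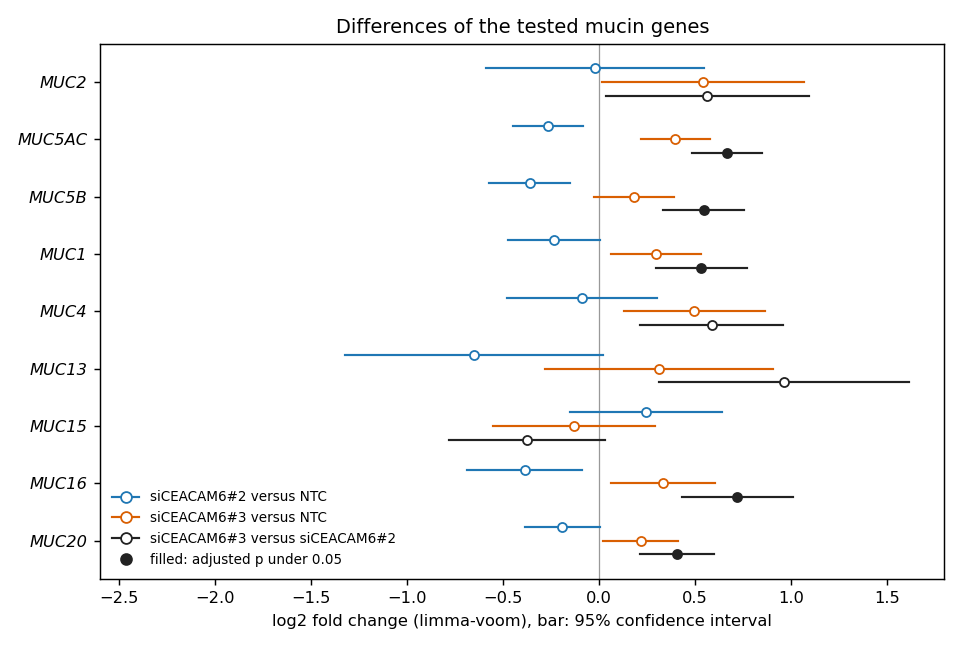
Log2 fold change of the 9 tested mucin genes in 3 comparisons, with 95% confidence intervals from limma-voom. Filled points had an adjusted p under 0.05. The 5 filled points are all between the siRNAs, from 0.41 for MUC20 to 0.72 for MUC16, and no point is filled in the comparisons with NTC.

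The 4 gel-forming mucin genes form a cluster of 249350 bases at chr11:1012823-1262172 (GRCh38), with MUC6 on the minus strand and MUC2, MUC5AC and MUC5B on the plus strand. MUC5AC, the gel-forming mucin of airway and stomach surface cells, was at 100.5, 91.0, 87.0 and 100.1 CPM in NTC replicates 1 to 4. It was at 77.01, 78.3, 71.2 and 88.2 CPM with siCEACAM6#2, and at 108, 135, 115 and 142 CPM with siCEACAM6#3. Every siCEACAM6#3 sample lay above every sample of both other groups, while the highest siCEACAM6#2 sample reached into the NTC range. The log2 fold change was 0.67 ± 0.09 (SE) between the siRNAs (adjusted p = 0.00189), -0.27 ± 0.09 for siCEACAM6#2 versus NTC (adjusted p = 0.161) and 0.40 ± 0.09 for siCEACAM6#3 versus NTC (adjusted p = 0.109). MUC5AC was called between the siRNAs in all 12 fits that left out 1 sample and in all 11 other settings. Against NTC it was called lower with siCEACAM6#2 in 0 of these 12 fits and 2 of the 11 other settings. With siCEACAM6#3 it was called higher than in NTC in 1 of the 12 and 3 of the 11, DESeq2 among them.

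MUC5B, the gel-forming mucin of submucosal glands and of the gallbladder, was at 84.2, 81.3, 77.1 and 81.8 CPM in NTC. It was at 63.7, 58.7, 53.8 and 78.6 CPM with siCEACAM6#2, and at 83.0, 93.4, 85.2 and 109 CPM with siCEACAM6#3. Replicate 4 was the highest of its group with both siRNAs, and the siRNA groups did not overlap. MUC5B had a log2 fold change of 0.55 ± 0.10 between the siRNAs (adjusted p = 0.0133) and -0.36 ± 0.10 for siCEACAM6#2 versus NTC (adjusted p = 0.0948). The adjusted p between the siRNAs was 0.0519 without siCEACAM6#2 replicate 2 and 0.0513 without replicate 3, and 0.0660 in the fit of the siRNA groups alone. Without siCEACAM6#2 replicate 4 or siCEACAM6#3 replicate 4, MUC5B was called lower with siCEACAM6#2 than in NTC. The same call was made in 4 of the 11 other settings, DESeq2 among them.

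For MUC5B the deposited TPM and the counts differed. In TPM, siCEACAM6#3 had 9.96, 7.23, 6.53 and 12.5 and siCEACAM6#2 had 8.72, 8.70, 6.88 and 8.47, so the groups overlapped. On log2(TPM + 1) the difference was 0.10 between the siRNAs (adjusted p = 0.891) and -0.19 for siCEACAM6#3 versus NTC, where the counts gave 0.18 ± 0.10. The ratio of CPM to TPM varied 1.93-fold between samples for MUC5B and 1.09-fold for MUC5AC. An antisense gene in the same place, MUC5B-AS1, had 0 counts in all samples.

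MUC2 had 19 to 31 counts per NTC sample, 24 to 31 with siCEACAM6#2 and 26 to 55 with siCEACAM6#3. In CPM, 3 of the 4 siCEACAM6#3 samples lay above all other samples. Its log2 fold change between the siRNAs was 0.57 ± 0.25 (adjusted p = 0.338), with a 95% confidence interval from 0.04 to 1.10. MUC6 was at 4, 4, 1 and 2 counts in NTC, 5, 1, 1 and 4 with siCEACAM6#2 and 2, 4, 3 and 7 with siCEACAM6#3, where no difference was detectable at this depth. Another 10 protein-coding genes lie within 200 kb of the cluster, and their log2 fold changes between the siRNAs ran from -0.08 to 0.43.

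Among the membrane mucins, MUC1 was at 124, 105, 132 and 140 CPM in NTC. It was at 112, 111, 95.1 and 105 CPM with siCEACAM6#2, and at 122, 163, 145 and 191 CPM with siCEACAM6#3. The siRNA groups did not overlap, while siCEACAM6#3 replicate 1 lay inside the NTC range and the other 3 above it. MUC1 had a log2 fold change of 0.53 ± 0.11 between the siRNAs (adjusted p = 0.0246), -0.24 ± 0.11 for siCEACAM6#2 versus NTC (adjusted p = 0.371) and 0.30 ± 0.11 for siCEACAM6#3 versus NTC (adjusted p = 0.291). The call between the siRNAs was lost in 6 of 12 fits that left out 1 sample, with adjusted p up to 0.0865. They were those without any 1 of the siCEACAM6#2 samples and without siCEACAM6#3 replicate 2 or 3. It was also lost in both TPM fits (0.42, adjusted p = 0.105 and 0.103) and in the fit of the siRNA groups alone (adjusted p = 0.0708). In TPM, siCEACAM6#3 replicate 1 at 61.4 lay below siCEACAM6#2 replicate 1 at 61.97, so the groups overlapped.

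MUC20 was at 225, 236, 266 and 268 CPM in NTC. It was at 201, 241, 219 and 209 CPM with siCEACAM6#2, and at 234, 305, 290 and 333 CPM with siCEACAM6#3. All siCEACAM6#3 samples but replicate 1 lay above all other samples, and replicate 1 lay below the highest siCEACAM6#2 sample, so the groups overlapped. MUC20 had a log2 fold change of 0.41 ± 0.09 between the siRNAs (adjusted p = 0.0349). This call was lost in 9 of 12 fits that left out 1 sample, with adjusted p up to 0.114. It was kept without NTC replicate 1, NTC replicate 4 or siCEACAM6#3 replicate 1. Both TPM fits also lost it (0.38, adjusted p = 0.0708 and 0.0683), as did the fit of the siRNA groups alone (adjusted p = 0.0997), although in TPM the siRNA groups did not overlap. MUC20 lies beside MUC4 at chr3:195720884-195811973. Its locus also holds the lncRNA MUC20-OT1 on the same strand, with 436 to 581 counts, and the pseudogene MUC20P1 is nearly identical to it, so reads may have been split among them. The log2 fold change between the siRNAs was 0.25 ± 0.07 for MUC20-OT1 (adjusted p = 0.103) and 0.94 ± 0.31 for MUC20P1 (adjusted p = 0.161).

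MUC16, the membrane mucin that carries the tumour marker CA125, was at 3.93, 3.83, 3.07 and 3.65 CPM in NTC. It was at 3.35, 2.77, 2.83 and 2.19 CPM with siCEACAM6#2, and at 4.84, 4.28, 4.35 and 4.73 CPM with siCEACAM6#3. All siCEACAM6#3 samples lay above all samples of both other groups. These values rest on 49 to 108 counts per sample. The log2 fold change of 0.72 ± 0.14 between the siRNAs (adjusted p = 0.0155) was the largest among the called mucin genes. Its adjusted p was 0.0531 without siCEACAM6#2 replicate 3 and 0.0583 without replicate 4. It was 0.250 and 0.289 in the TPM fits with pseudocounts of 1 and 0.1, where the difference was 0.24 and 0.51, and 0.0603 in the fit of the siRNA groups alone. In TPM the siCEACAM6#3 samples, from 0.783 to 1.02, overlapped the NTC samples, from 0.666 to 0.812, and not the siCEACAM6#2 samples, from 0.410 to 0.712.

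MUC4, a membrane mucin known to pair with the receptor ERBB2, was at 12.8, 14.02, 13.7 and 16.9 CPM in NTC. It was at 10.1, 15.2, 15.5 and 13.5 CPM with siCEACAM6#2, and at 14.8, 28.1, 17.1 and 23.3 CPM with siCEACAM6#3. The 3 highest siCEACAM6#3 samples lay above all others in CPM. In TPM siCEACAM6#3 replicate 3 at 5.58 lay below siCEACAM6#2 replicate 2 at 5.61. The log2 fold change between the siRNAs, 0.59 ± 0.18, was not called (adjusted p = 0.122). It was called without siCEACAM6#3 replicate 1 (0.74, adjusted p = 0.0169).

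MUC13 had 6 to 23 counts per sample and a log2 fold change between the siRNAs of 0.96 ± 0.31 (adjusted p = 0.149), with a 95% confidence interval from 0.31 to 1.61. MUC15, a membrane mucin first described in milk fat globules, differed in sign from the other 8. It was at 1.12, 1.42, 1.42 and 1.37 CPM in NTC, at 1.54, 1.48, 1.505 and 1.79 CPM with siCEACAM6#2 and at 1.30, 0.847, 1.51 and 1.26 CPM with siCEACAM6#3. The siCEACAM6#2 samples all lay above the NTC samples and the siCEACAM6#3 samples overlapped both groups. MUC15 had a log2 fold change of 0.24 ± 0.19 for siCEACAM6#2 versus NTC (adjusted p = 0.628) and -0.38 ± 0.19 between the siRNAs (adjusted p = 0.428), on 18 to 40 counts per sample.

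**Figure D3:**
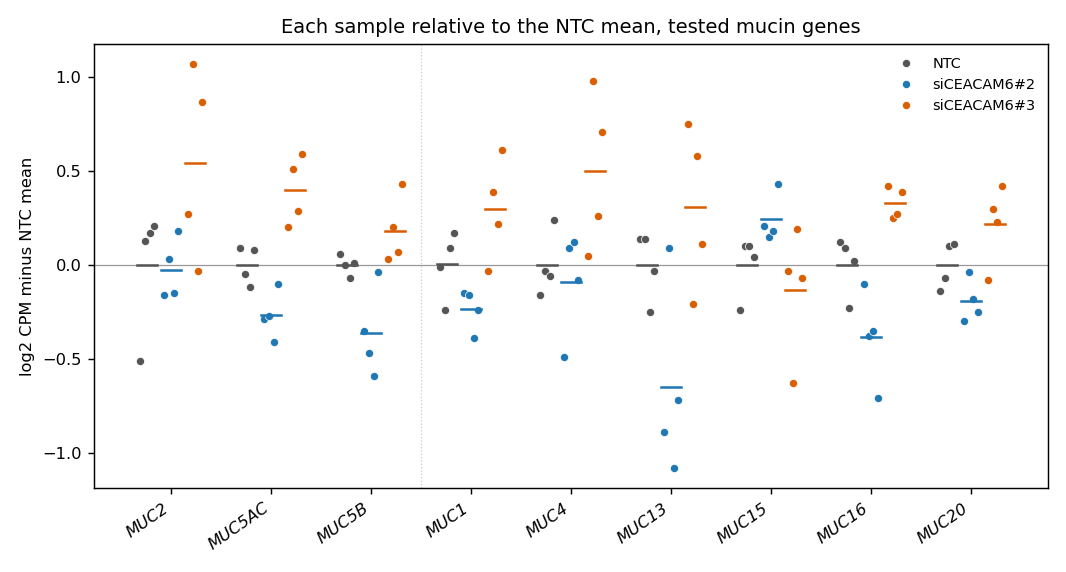
Log2 CPM of each sample minus the mean of the 4 NTC samples, for the 9 tested mucin genes. Points are single samples, short lines are group means, and a dotted line divides gel-forming (left) from membrane mucins (right). For MUC5AC and MUC16 all siCEACAM6#3 samples lie above all other samples, and for MUC15 the siCEACAM6#2 samples lie above the NTC samples.

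The ranges of the groups gave a second view of single genes. Between the siRNAs 4 of 9 tested mucin genes, MUC5AC, MUC5B, MUC1 and MUC16, did not overlap in log2 CPM, where 6.68% of all tested genes did not. For siCEACAM6#3 versus NTC there were 2, MUC5AC and MUC16, against 6.27%, and for siCEACAM6#2 versus NTC there was 1, MUC15, against 10.8%. In the two-sided exact permutation test each of these 7 had p = 0.0286, the smallest p that 4 samples against 4 allow. Full separation of the groups always gives this p, so the test restates the ranges and adds nothing to them. None of the other 20 of the 27 tests had an exact p under 0.05. Of the siCEACAM6#3 samples, replicate 1 was the lowest for 5 of 9 genes, MUC5AC, MUC5B, MUC1, MUC4 and MUC20. It was also the siCEACAM6#3 sample with the lowest mitochondrial share, 12.5%, while the other 3 lay above every sample of the other groups, and the part of this in the mucin values was not tested. Without replicate 1, 4 mucin genes, MUC5AC, MUC1, MUC4 and MUC20, were called higher with siCEACAM6#3 than in NTC, and 1.44% of all tested genes were then called in that comparison.

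Promoters are shown for MUC1 and MUC16, since both were called between the siRNAs and have a RefSeq entry (GRCh38.p14). MUC2, MUC4 and MUC13 also had an entry, while MUC5AC, MUC5B, MUC6, MUC15 and MUC20 did not. Each runs 5' to 3' on the minus strand from 250 bases before to 50 after the start site, at chr1:155192866-155193165 for MUC1 and chr19:9010360-9010659 for MUC16, the start site nearer to the annotated gene start of 2 in RefSeq. Capitals mark 3 motifs searched on both strands. They are TATAAA, the core of many TATA boxes, then the Sp1-type box GGGCGG, and finally the E-box sequence CACCTG.
MUC1: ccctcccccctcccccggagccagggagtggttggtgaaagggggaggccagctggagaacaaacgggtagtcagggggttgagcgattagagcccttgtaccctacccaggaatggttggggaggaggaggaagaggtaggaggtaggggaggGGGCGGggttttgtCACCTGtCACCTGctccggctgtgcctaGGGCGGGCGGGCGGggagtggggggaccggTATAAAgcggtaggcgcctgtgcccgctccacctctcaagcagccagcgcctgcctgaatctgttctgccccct
MUC16: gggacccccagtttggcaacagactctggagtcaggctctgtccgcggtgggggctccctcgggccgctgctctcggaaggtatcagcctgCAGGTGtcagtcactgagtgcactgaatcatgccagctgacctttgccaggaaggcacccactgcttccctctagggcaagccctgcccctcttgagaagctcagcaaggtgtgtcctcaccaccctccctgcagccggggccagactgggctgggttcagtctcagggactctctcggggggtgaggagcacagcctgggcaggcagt
MUC1 held TATAAA 24 bases before the start site, 4 overlapping or separate copies of GGGCGG and 2 of CACCTG. The MUC16 window shown held neither of the first motifs and 1 copy of CACCTG, on the other strand. The other MUC16 entry, at chr19:9065702-9066001, held 1 copy of GGGCGG and 1 of CACCTG. MUC1 also had another entry, at chr1:155192860-155193159, with the same number of each motif. Of 35116 promoters of this length, 11.5% held TATAAA, 45.0% held GGGCGG and 20.6% held CACCTG. The match of letters is a description of these windows.

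Other genes of mucin biology were taken from lists. Of 13 further mucin genes 6 were tested. Between the siRNAs limma-voom called 0 of them (1.47% of all tested genes), with 1 at an unadjusted p under 0.05 (13.3%). edgeR called 0 of them (1.57% of all tested genes) and DESeq2 called 1, CD164 (3.16%). CD164, a sialomucin of endosomes and the cell surface, was the highest of them at 76.9 ± 3.46 TPM in NTC and had a log2 fold change between the siRNAs of 0.18 ± 0.06 (adjusted p = 0.148). MUC3A, a membrane mucin of the intestine, was at 16.6 ± 1.71 TPM in NTC. Its log2 fold change between the siRNAs was -0.01 ± 0.11 (adjusted p = 0.974), with a 95% confidence interval from -0.24 to 0.21.

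Genes for the folding, packaging and secretion of mucins had 13 of 16 tested. Of these 13, 4 were called higher with siCEACAM6#3 than with siCEACAM6#2, where 0.84% of all tested genes were. The median log2 fold change of the 13 was 0.29. TFF2, a trefoil peptide secreted together with mucins, was at 2.86 ± 0.48 CPM with siCEACAM6#2 and 5.58 ± 1.195 CPM with siCEACAM6#3, a log2 fold change of 0.95 ± 0.16 (adjusted p = 0.00800). ERN2, an endoplasmic reticulum stress sensor of mucous cells, was at 21.1 ± 1.59 and 29.6 ± 4.24 CPM (0.48 ± 0.09, adjusted p = 0.0142), and was lower with siCEACAM6#2 than in NTC (-0.45 ± 0.09, adjusted p = 0.0235). CREB3L1, a transcription factor of secretory cells, was at 16.3 ± 1.16 and 21.9 ± 1.402 CPM (0.43 ± 0.08, adjusted p = 0.0142). SYTL2, which takes part in the docking of secretory vesicles, was at 34.8 ± 2.42 and 43.1 ± 1.24 CPM (0.31 ± 0.06, adjusted p = 0.0140), and was higher with siCEACAM6#3 than in NTC (0.37 ± 0.06, adjusted p = 0.0159). AGR2, the disulfide isomerase that folds gel-forming mucins, was the highest of the list at 310 ± 31.5 TPM in NTC and had a log2 fold change between the siRNAs of -0.14 ± 0.09 (adjusted p = 0.549). VAMP8, a vesicle fusion protein, had one of 0.08 ± 0.07 (adjusted p = 0.644).

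The call was lost between the siRNAs without siCEACAM6#2 replicate 3 for ERN2 and CREB3L1 and without siCEACAM6#3 replicate 3 for SYTL2. Both TPM fits also lost the calls of ERN2, CREB3L1 and SYTL2 in each comparison where they had one, and the fit of the siRNA groups alone lost those of ERN2 and SYTL2 between the siRNAs. Over all settings and left-out samples the adjusted p between the siRNAs reached 0.136 for ERN2, 0.138 for CREB3L1 and 0.211 for SYTL2. For ERN2 in siCEACAM6#2 versus NTC and for SYTL2 in siCEACAM6#3 versus NTC it was lost in 5 of 12 fits that left out 1 sample. These were, for ERN2, NTC replicates 1, 2 and 3 and siCEACAM6#2 replicates 2 and 3, and, for SYTL2, each NTC replicate and siCEACAM6#3 replicate 3. The call of TFF2 was kept in all 12 and in all 11 other settings.

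Enzymes of mucin O-glycans had 13 of 15 tested, with a median log2 fold change of 0.13 between the siRNAs. In this comparison 1 was called, where 1.47% of all tested genes were. It was ST3GAL1, which caps core sugars with sialic acid, at 27.7 ± 1.41 CPM with siCEACAM6#2 and 33.3 ± 0.79 CPM with siCEACAM6#3 (0.26 ± 0.06, adjusted p = 0.0308). The call was lost without any 1 of the siCEACAM6#2 samples and without siCEACAM6#3 replicate 3. It was also lost in 5 of 11 other settings, namely scaling by library size only, no filter on low counts, both TPM fits and the fit of the siRNA groups alone. Over all settings and left-out samples its adjusted p reached 0.491. B3GNT3 and GCNT3, which extend and branch these sugars, were the highest of the list in TPM, at 60.01 to 76.2 and 57.5 to 63.1 in NTC. Their log2 fold changes were 0.10 ± 0.06 (adjusted p = 0.490) and 0.21 ± 0.06 (adjusted p = 0.0926).

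Of the transcription factors that act on mucin genes in other epithelia 13 of 15 were tested. Between the siRNAs 1 was called, where 1.47% of all tested genes were, in the opposite direction to the called mucin genes. KLF4, a factor of differentiated epithelium, was at 110 ± 1.99 CPM in NTC, 139 ± 5.88 CPM with siCEACAM6#2 and 109 ± 3.73 CPM with siCEACAM6#3. It was lower with siCEACAM6#3 than with siCEACAM6#2 (-0.34 ± 0.05, adjusted p = 0.00189) and higher with siCEACAM6#2 than in NTC (0.33 ± 0.05, adjusted p = 0.00434), and both calls were kept in all 12 fits that left out 1 sample. The call against NTC was lost in both TPM fits, with adjusted p up to 0.0845. ELF3 and FOXA1, both factors of epithelial identity, were the highest at 265 ± 14.9 and 97.4 ± 5.08 TPM in NTC. Their log2 fold changes between the siRNAs were 0.25 ± 0.07 (adjusted p = 0.0957) and 0.13 ± 0.06 (adjusted p = 0.341).

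For proteins that shed or bind membrane mucins all 11 genes were tested. Between the siRNAs limma-voom called 0 of them (1.47% of all tested genes), with 2 at an unadjusted p under 0.05 (13.3%). edgeR called 0 of them (1.57% of all tested genes) and DESeq2 called 2, ADAM10 and ADAM17 (3.16%). LGALS3, the galectin that binds MUC1 and MUC16 sugars, and CTNNB1, which binds the MUC1 tail, were the highest at 404 ± 5.56 and 358 ± 12.7 TPM in NTC. Their log2 fold changes between the siRNAs were 0.05 ± 0.04 (adjusted p = 0.661) and -0.09 ± 0.05 (adjusted p = 0.535).

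**Figure D4:**
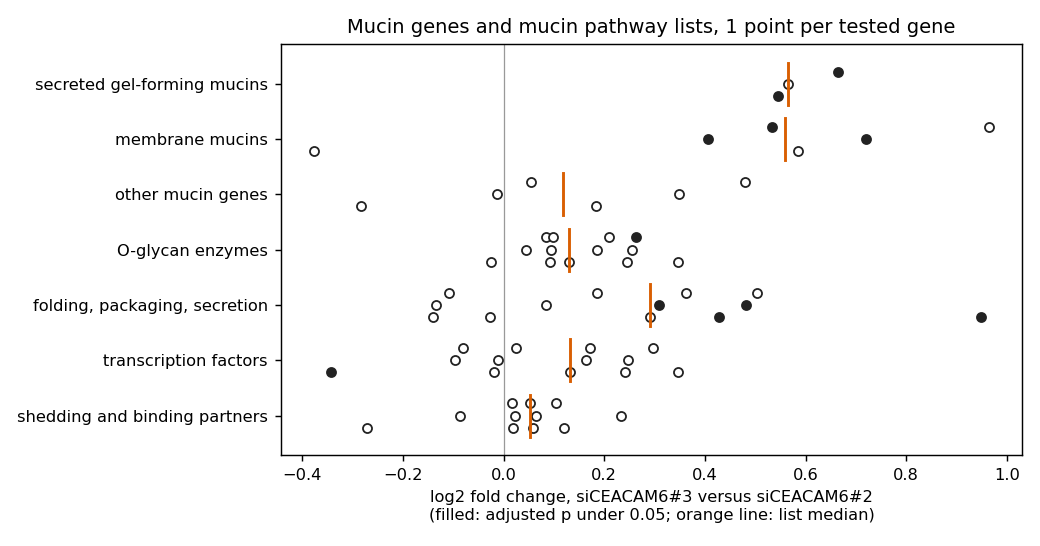
Log2 fold change in siCEACAM6#3 versus siCEACAM6#2 for the mucin genes and 5 lists of related genes. Each point is 1 tested gene, filled where the adjusted p was under 0.05, and orange lines are list medians, which run from 0.05 for shedding and binding partners to 0.57 for gel-forming mucins. KLF4 is the filled point at -0.34.

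Patterns across the 12 samples are given as a description, since the samples fall into 3 groups of 1 cell line and share depth and processing. Among the tested mucin genes Pearson's r of log2 CPM was 0.924 between MUC5AC and MUC5B and 0.907 between MUC1 and MUC20, and MUC15 had a negative r with each of the other 8, from -0.644 to -0.281. Of 11568 tested genes with a mean CPM of at least 5, those most like MUC20 were CEACAM5 (r = 0.982), the unnamed gene ENSG00000260401 (0.973) and CEACAM1 (0.964). CEACAM5 and CEACAM1 are relatives of the targeted gene with long stretches of similar sequence, among which estimated counts can be divided. CEACAM5 itself was at 1503 ± 116 CPM with siCEACAM6#2 and 2111 ± 282 CPM with siCEACAM6#3 (0.48 ± 0.09, adjusted p = 0.0142), a call that was lost without siCEACAM6#2 replicate 3 or siCEACAM6#3 replicate 3. The genes most like MUC5AC included ANKRD10 (0.953) and PDE4DIP (0.940). Those most like MUC5B were SPECC1L (0.944), CNNM3 (0.936) and GORASP1 (0.929), and those most like MUC1 were NPIPB15 (0.951), ANKRD10 (0.942) and CD82 (0.933). MUC16 had weaker matches in STRBP (0.861), LINC01088 (0.848) and ZNF346 (0.833).

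Markers of biliary epithelium were high in all groups. KRT19 and KRT7, keratins of bile duct and gallbladder epithelium, were at 3224 ± 103 and 1977 ± 136 TPM in NTC, and 7 of 9 such markers were tested. Summed over the list they took 8240 to 9280 CPM in the NTC samples. The range was 8600 to 9860 for siCEACAM6#2 and 8840 to 10200 for siCEACAM6#3. CFTR, a chloride channel of bile duct epithelium, had at most 4 counts. Markers of other cell types summed to 56.4 to 73.5 CPM in the NTC samples, 60.4 to 77.9 for siCEACAM6#2 and 59.0 to 83.3 for siCEACAM6#3, and 5 of these 10, namely ALB, APOA1, COL1A2, PDGFRB and PTPRC, were too low to be tested. CD68 and CHGA were the highest of them in TPM. CHGA, an endocrine marker, was called lower with siCEACAM6#3 than with siCEACAM6#2 by edgeR and DESeq2 but not by limma-voom. VWF was lower with siCEACAM6#2 than in NTC (-0.44 ± 0.10, adjusted p = 0.0420), and that call was kept in 3 of 12 fits that left out 1 sample and in 8 of 11 other settings. The part of these markers in the mucin values was not tested.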

How the data were processed

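RNA-seq of 12 SNU308 samples was used. The authors trimmed reads with Trim Galore 0.6.4 and quantified them with kallisto against GRCh38.p13 transcripts. They deposited estimated counts per gene, not scaled, and TPM per gene, scaled for length and depth. Labels and methods disagree on the transfection reagent and read layout. Estimated counts were rounded, filtered with filterByExpr by group, scaled by TMM and fitted with limma-voom (R 4.3.3, limma 3.58.1, edgeR 4.0.16) with a mean for each of 3 groups. CPM used TMM-scaled library sizes. In all, 4 contrasts were tested, with Benjamini-Hochberg adjustment over 17620 genes. Log2 CPM of each mucin gene was also compared by exact permutation (scipy 1.17.1, two-sided), with no adjustment over these genes. All 10 members were named, together with the called genes and the 2 highest of each list and the 3 genes most like each called member, except where a gene is not reported here. Members and lists were chosen with earlier results of these data known. Alternatives were other scaling, filters and tools (DESeq2 1.42.0, limma-trend on log2 TPM), sample weights, a replicate block, fits of 2 groups, and leaving out each sample. Positions are from GENCODE release 44, and 99.6% of gene identifiers matched a name.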

Additional observations from a re-analysis of the deposited data

Results flagged for a closer look

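The responses of 5 mucin genes to the siRNAs differed in the test of the difference itself, limma-voom on siCEACAM6#3 versus siCEACAM6#2. The log2 difference was 0.67 for MUC5AC, 0.55 for MUC5B, 0.53 for MUC1, 0.72 for MUC16 and 0.41 for MUC20, each higher with siCEACAM6#3. CEACAM6 itself was at 56.7% of NTC with siCEACAM6#2 and 72.5% with siCEACAM6#3, and the part of this in the mucin values was not tested.

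In 27 groups of 4 samples, 1 for each tested mucin gene and group, Dixon's ratio of gap to range passed its 95% critical value in 2. Both were the lowest sample, NTC replicate 1, at 0.886 for MUC2 and 0.838 for MUC15. Chance gives about 1 such group in 20, and both genes are at 19 to 32 counts in NTC.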

How the results depend on the processing

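Between the siRNAs, where 5 mucin genes were called, the count was 1 with limma-trend on log2(TPM + 1) or log2(TPM + 0.1). It was also 1 in the fit of these 2 groups alone. Those settings called 0.278%, 0.301% and 0.333% of all tested genes. Without 1 sample the count was 1 to 6, and 0.464% of all tested genes were called where it was 1. For siCEACAM6#2 versus NTC, where 0 were called, it was 1 with DESeq2 (3.03% of all tested genes) and 2 with sample quality weights (6.36%). It was 1 with the replicate block (1.61%) and 2 in the fit of 2 groups (3.49%). Leaving out 1 sample gave 0 to 1, and where it was 1, 0.587% or 2.03% of all tested genes were called. For siCEACAM6#3 versus NTC it was 1 with DESeq2 (1.25% of all tested genes), with sample quality weights (2.17%) and with the replicate block (0.494%). Leaving out 1 sample gave 0 to 4, and where it was 4, 1.44% of all tested genes were called. The average stayed at 0 in all settings run. MUC20 held 36.3% of the summed level with CPM per exonic length against 65.8% in TPM. Signs turned, none of them of a called difference, for MUC4 with siCEACAM6#2 (0.02 in both TPM fits, -0.16 to 0.05 without 1 sample), MUC5B with siCEACAM6#3 (-0.19 and -0.21 in TPM), MUC15 with siCEACAM6#3 (0.01 with quality weights, -0.23 to 0.03 without 1 sample) and MUC2 with siCEACAM6#2 (-0.19 to 0.05 without 1 sample). The cause was not tested. Same-numbered samples deviated together in part only (correlation -0.25 to 0.53 over 11569 genes), so the numbers were not taken as pairs. The replicate block called 6 between the siRNAs, where it called 1.98% of all tested genes. Counts below about 50 per sample for MUC2, MUC6, MUC13 and MUC15 limit what could be detected. DESeq2 gave no adjusted p for MUC2, MUC13 and MUC15, and MUC13 did not pass the filter of 1 CPM in 4 samples.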
